A study of Mus musculus with 15 samples.

Results

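The subject of this section is a set of 9 imprinted genes of the mouse, measured in embryonic stem cells on one-colour microarrays. The 9 genes are H19, Igf2, Igf2r, Airn, Kcnq1ot1, Cdkn1c, Phlda2, Slc22a18 and Ascl2. They were chosen by symbol as the genes of the Igf2 and Igf2r axis and of the imprinted region around Kcnq1, with their values in Nat1-null and wild-type cells already known. All 9 were on the array, among 21368 genes with a symbol, and they were read by 11 probes. The level of each gene in Nat1-null or wild-type cells is therefore given as a description, and differences from wild type carry no test for these 9 genes.

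The study holds 15 arrays in 5 groups of 3, all from mouse embryonic stem cells grown in standard stem cell medium on gelatin. The first group is Nat1-null cells with a tetracycline-inducible Map3k3 transgene, cultured with doxycycline (Dox). The second is the same inducible Map3k3 line without Dox. The third is Nat1-null cells with an inducible EGFP transgene, also with Dox. The fourth is Nat1-null cells with no transgene named, and the fifth is wild-type cells. The first 4 groups thus all lack Nat1, the name the labels use for Eif4g2, a translation initiation factor related to the scaffold protein of the cap-binding complex. Map3k3 is a kinase at the top of MAP kinase cascades, and the design asks what its expression does in cells without Nat1. The sources used here give no Dox dose or time, no number of clones for a line, and no statement that replicates were separate cultures. A p-value below therefore reflects the spread among these arrays alone, which may be technical.

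Imprinted genes are read from the maternal or the paternal chromosome only, according to DNA methylation set in the germline. On chromosome 7, H19, a long noncoding RNA, is read from the maternal copy, and its neighbour Igf2, a growth factor of the insulin family, from the paternal copy. Further along the same chromosome, Kcnq1ot1 is a paternally read noncoding RNA whose transcription goes with silencing of Cdkn1c, Phlda2, Slc22a18 and, in placenta, Ascl2 on the same copy. On chromosome 17, Airn has the same role for Igf2r, the receptor that clears Igf2 protein from the cell surface. Germline imprints are often lost or altered when embryonic stem cells are kept in culture.

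H19 is also the precursor of a microRNA, miR-675. Its mature forms are shown because the H19 signal was near background in all groups without Nat1. They lie inside H19 on the minus strand of chromosome 7 in RefSeq on GRCm38.p6, at chr7:142577112-142577133 for the 5p form and chr7:142577078-142577099 for the 3p form. Capitals mark the seed, bases 2 to 8 from the 5' end. The microRNAs themselves were not measured here.
mmu-miR-675-5p: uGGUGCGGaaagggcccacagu
mmu-miR-675-3p: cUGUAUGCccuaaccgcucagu

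The promoters of the 2 noncoding RNAs that head the silenced regions are shown because their signals differed in kind, with Kcnq1ot1 at or near background on the arrays without Nat1 and Airn above background on all 15 arrays. Each window covers 300 bases around the annotated start, the last 50 of them transcribed, in RefSeq on GRCm38.p6. The Kcnq1ot1 window is chr7:143296498-143296797 on the minus strand, and the Airn window is chr17:12741061-12741360 on the plus strand. Capitals mark every CG pair, the dinucleotide that carries DNA methylation.
Kcnq1ot1: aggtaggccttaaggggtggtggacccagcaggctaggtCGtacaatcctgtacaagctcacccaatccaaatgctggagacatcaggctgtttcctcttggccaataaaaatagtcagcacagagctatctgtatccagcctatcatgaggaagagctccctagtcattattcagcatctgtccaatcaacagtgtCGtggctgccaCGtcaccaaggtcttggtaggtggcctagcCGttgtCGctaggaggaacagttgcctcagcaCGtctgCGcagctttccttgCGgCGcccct
Airn: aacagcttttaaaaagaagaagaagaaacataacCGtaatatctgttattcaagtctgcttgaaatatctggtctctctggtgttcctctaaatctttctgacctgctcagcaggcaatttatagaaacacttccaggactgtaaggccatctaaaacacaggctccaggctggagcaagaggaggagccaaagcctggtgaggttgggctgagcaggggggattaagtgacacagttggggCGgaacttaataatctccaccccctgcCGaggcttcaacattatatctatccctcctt

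The Kcnq1ot1 window held 9 CG pairs, more than 54.2% of the 32851 mouse promoters of the same length, whose median was 7. The Airn window held 3, more than 23.3% of promoters. The Igf2r window held 34, those of Phlda2, Ascl2 and Slc22a18 held 26, 23 and 2, and the 4 annotated Igf2 starts held between 2 and 24. The letters CCAAT, read on both strands, occurred 3 times in the Kcnq1ot1 window and 0 times in the Airn window. At least 1 copy was found in 37.4% of promoters, and 3 or more in 3.37%. TGCCGC, the short motif bound by the imprint protector Zfp57, was found on either strand in 11.6% of promoters and in neither of these windows. A match or its absence describes these letters only. H19 and Cdkn1c are named without a promoter.

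Signals are given in arbitrary fluorescence units after background correction. Levels are log2 of that signal over the 75th percentile of its array, which lay between 494 and 614 units. A probe's level is compared between groups and not with another probe. A probe was marked on each array as well above background or not. Of the 11 probes, 10 passed the filter, which asked for a group with all 3 arrays well above background, and all 9 genes passed through them. H19 and Kcnq1ot1 passed through wild-type cells alone, and Igf2 through wild-type cells and Map3k3 cells with Dox. Differences were tested with limma across 14443 genes with Benjamini-Hochberg adjustment, and a gene was called where the adjusted p was below 0.05 and the difference at least 1.5-fold. Where a group was not above background on any array, the fold is a lower bound and is written as "at least".

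The libraries matched their labels on the gene that was removed. Eif4g2 averaged 1.61 ± 0.06 in Map3k3 cells with Dox, 1.62 ± 0.17 without Dox, 1.56 ± 0.26 in EGFP cells and 1.71 ± 0.19 in null cells, against 4.31 ± 0.15 in wild-type cells (log2 level, SD, n = 3 each). The null level was 6.05-fold lower but still well above background, and the sources used here do not say whether the probe lies in the deleted stretch. The Map3k3 probe averaged -0.50 ± 0.16 with Dox and -0.69 ± 0.21 without Dox (log2 level, adjusted p = 0.24, not called), and the sources used here do not say whether it reads the transgene. All 10 markers of mouse embryonic stem cells were well above background on all 15 arrays.

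H19 separated wild-type cells from all others. Its probe gave 9.95, 18.7 and 15.7 units on the 3 null arrays, against 32148, 27533 and 28214 units on the wild-type arrays. No null array was above background, so that H19 was at least 962-fold lower in null than in wild-type cells. Map3k3 cells with Dox gave 135, 16.7 and 10.2 units, without Dox 23.5, 10.0 and 15.7 units, and EGFP cells with Dox 9.51, 13.7 and 21.3 units. Only the first Map3k3 array with Dox rose above background, and the 3 groups overlapped. The log2 difference between Map3k3 cells with and without Dox was 0.77 ± 0.74 (SE, adjusted p = 0.437), and between Map3k3 and EGFP cells with Dox it was 0.83 ± 0.74 (adjusted p = 0.399). The log2 difference between Map3k3 cells with Dox and wild-type cells was -10.04, with 1 of the 3 arrays with Dox above background, and ran between -11.17 and -9.32 when single arrays were left out. The difference from cells without Dox turned on the first array with Dox and was -0.36 on the log2 scale without it. With the row of the slide as a block, where that array stands with the 3 arrays without Dox, the difference was 2.20 and was called (adjusted p = 0.0162).

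Igf2 behaved differently from H19: it was high in Map3k3 cells with Dox, above the wild-type level. The probe gave 222, 255 and 171 units in Map3k3 cells with Dox, 5.81, 5.29 and 5.46 units in the same line without Dox, and 8.52, 7.68 and 6.05 units in EGFP cells with Dox. Every array with Map3k3 and Dox was above background and above every array of both other groups, none of which was above background. Igf2 was at least 11.45-fold higher in Map3k3 cells with Dox than without (log2 difference 5.17 ± 0.41, SE, adjusted p = 1.69e-06). It was at least 8.57-fold higher than in EGFP cells with Dox (4.67 ± 0.41, adjusted p = 3.88e-06). With a background correction that raises dim signals (normexp with an offset of 50), the same differences were 1.87 and 1.74 on the log2 scale and both remained called.

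In null cells the Igf2 probe gave 7.42, 30.3 and 7.62 units, none above background, against 68.2, 50.5 and 52.5 units in wild-type cells. Igf2 was thus at least 1.86-fold lower in null than in wild-type cells, a narrow bound because the wild-type signal was itself dim. In Map3k3 cells with Dox it was 3.69-fold higher than in wild-type cells (log2 difference 1.88), and the log2 difference was 1.1 with normexp. The order of levels was Map3k3 with Dox, then wild type, and then null, EGFP and Map3k3 without Dox, which all lay below the background limit and have no order. Both H19 and Igf2 were therefore at background in null cells, and Map3k3 with Dox went with a higher Igf2 level on 3 of 3 arrays and with an H19 signal above background on 1 of 3.

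An antisense transcript at the same locus, Igf2os, was the second most similar named gene to Igf2 over the 15 arrays (Pearson r = 0.972). It averaged -1.25 ± 0.21 in Map3k3 cells with Dox and -2.86 ± 0.05 in wild-type cells (log2 level, SD, n = 3), and was not above background on any array of the other 3 groups. It was at least 13.3-fold higher with Dox than without in the Map3k3 line and at least 9.92-fold higher than in EGFP cells. It was picked for its likeness to Igf2 on these arrays, so these folds are a description with no test. The gene most similar to Igf2 was Sox9, a transcription factor of many progenitor cells (r = 0.973), and the third was Prmt2, an arginine methyltransferase (r = 0.970). All these correlations are descriptions over arrays that share their groups.

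**Figure D1:**
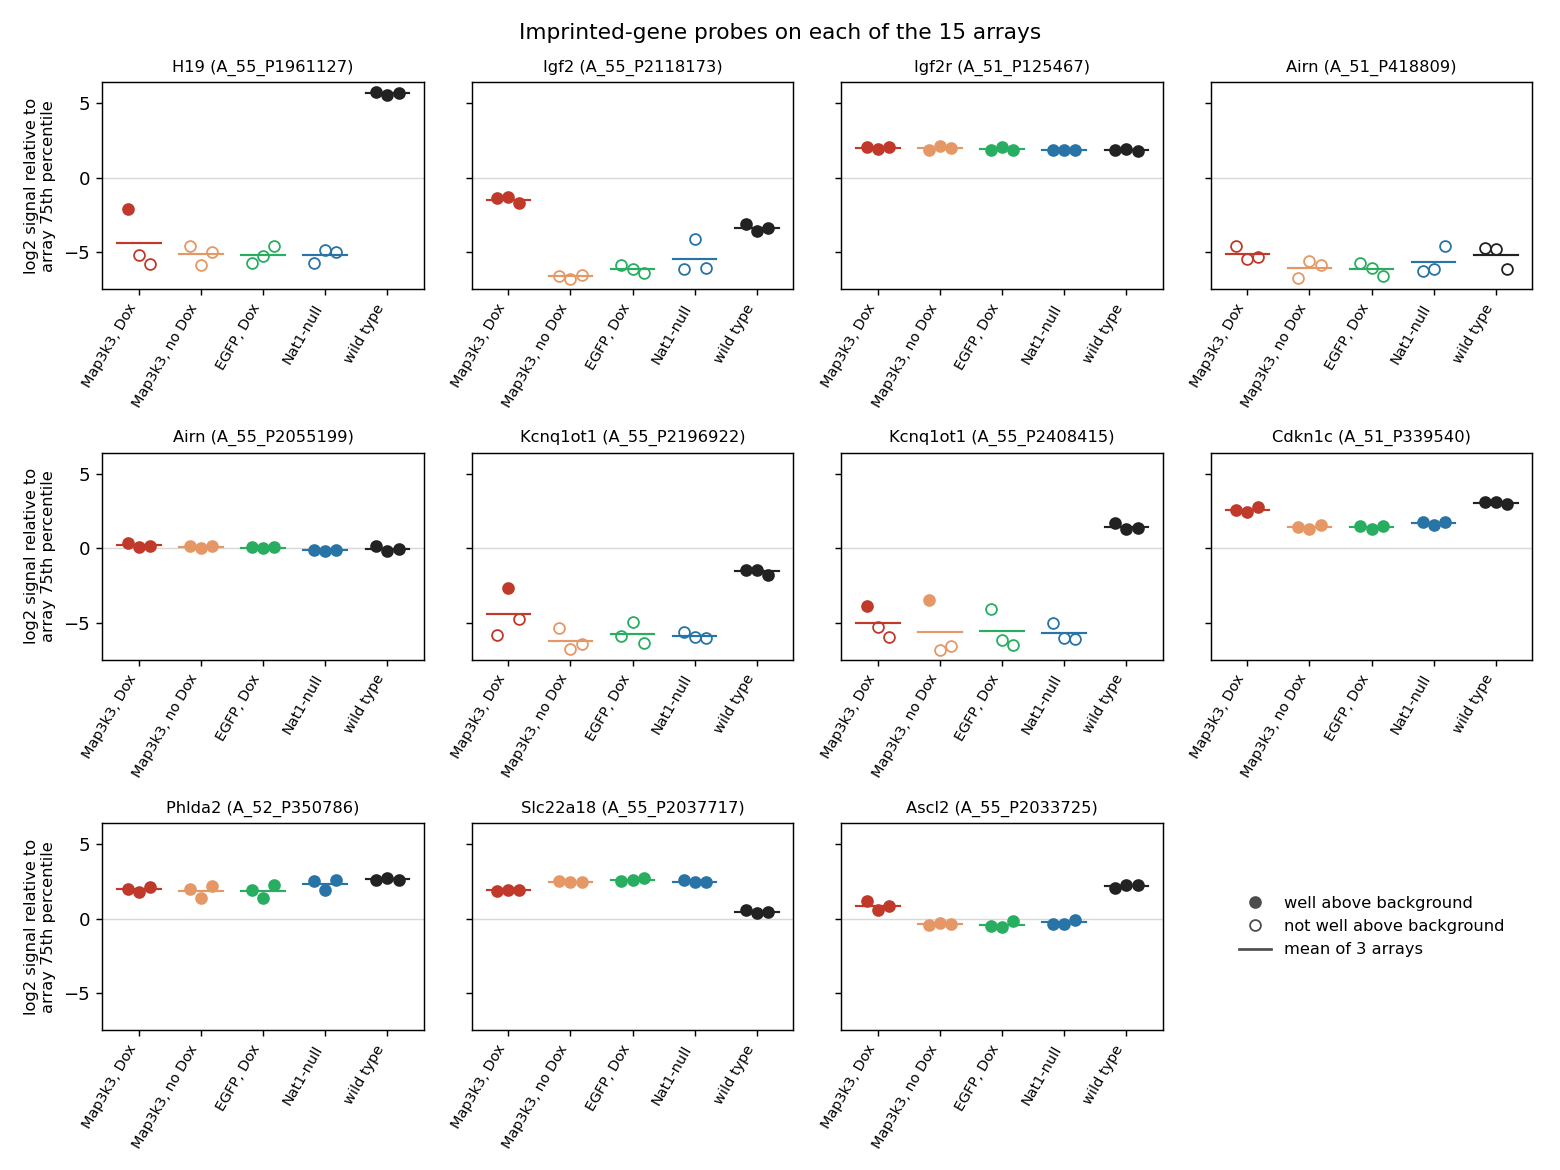
Log2 level (signal over the 75th percentile of its array) for each of the 11 probes of the 9 imprinted genes, with 1 point per array, a line for the mean of 3 arrays, and open points where the probe was not well above background. H19 and both Kcnq1ot1 probes stood high in wild-type cells alone, Igf2 in Map3k3 cells with Dox and in wild-type cells, and Slc22a18 was lowest in wild-type cells.

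Igf2r and its antisense partner Airn showed no call in any tested comparison. Igf2r gave 2481, 2340 and 2344 units in Map3k3 cells with Dox, 2007, 2560 and 1941 units without Dox, and 1809, 2216 and 1849 units in EGFP cells. Its null arrays gave 1934, 1945 and 1847 units, against 2125, 2222 and 1885 units in wild-type cells. All 5 groups lay between 1.85 and 2.03 on the log2 scale in their means, and no neighbouring pair in that order was separated beyond its spread. The difference between Map3k3 cells with and without Dox was 0.05, with a 95% interval of -0.14 to 0.23 (adjusted p = 0.707), and against EGFP cells it was 0.11, with an interval of -0.08 to 0.29 (adjusted p = 0.353). The interval therefore leaves out a 1.5-fold change in either direction. The null minus wild-type difference was 0.02.

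Airn gave 740, 660 and 633 units in Map3k3 cells with Dox, 629, 586 and 555 units without Dox, and 526, 531 and 546 units in EGFP cells. Null cells gave 479, 479 and 465 units, against 647, 524 and 536 units in wild-type cells. The difference between Map3k3 cells with and without Dox was 0.09, with an interval of -0.10 to 0.29 (adjusted p = 0.424). Against EGFP cells it was 0.15, with an interval of -0.04 to 0.35 (adjusted p = 0.186), although the 3 Map3k3 arrays lay above the 3 EGFP arrays. The null minus wild-type difference was -0.11. A second Airn probe was not above background on any of the 15 arrays, at 5.30 to 24.4 units, and gave no measurement. In contrast to H19 and Kcnq1ot1, then, Airn was above background on all 15 arrays by its first probe.

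Kcnq1ot1 was measurable in wild-type cells and close to background everywhere else. Its first probe gave 16.1, 8.18 and 7.40 units in null cells, against 1864, 1432 and 1400 units in wild-type cells. The second probe gave 10.5, 8.52 and 7.58 units in null cells, against 217, 215 and 160 units in wild-type cells. Kcnq1ot1 was at least 51.1-fold lower in null than in wild-type cells by the first probe and at least 6.42-fold lower by the second.

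Map3k3 cells with Dox gave 40.1, 15.4 and 9.15 units on the first Kcnq1ot1 probe, Map3k3 cells without Dox 50.9, 5.08 and 5.24 units, and EGFP cells 29.2, 7.42 and 5.78 units. One array with Dox and one without were above background, in both cases the first of the group. The differences were 0.58 ± 0.87 between Map3k3 cells with and without Dox (SE, adjusted p = 0.624) and 0.54 ± 0.87 against EGFP cells (adjusted p = 0.652), with 95% intervals of -1.32 to 2.48 and -1.36 to 2.44. On the second probe only the second Map3k3 array with Dox, at 94.7 units, was above background in the cells without Nat1. That probe's differences from cells without Dox and from EGFP cells were 1.76 (adjusted p = 0.0538) and 1.297 (adjusted p = 0.139) on the log2 scale in a fit over all probes. The 2 probes thus differed in which single array was raised. At this signal, changes of Kcnq1ot1 among the groups without Nat1 were not detectable.

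The named genes most similar to Kcnq1ot1 over the 15 arrays were Meg3 (r = 0.995), Snrpn (r = 0.974) and Tcfl5 (r = 0.971), of which Meg3 and Snrpn are imprinted. Meg3, a maternally read noncoding RNA, was at least 945-fold lower in null than in wild-type cells, and Snrpn, a paternally read gene of the neuronal splicing machinery, averaged -3.98 ± 0.58 in null and 4.37 ± 0.16 in wild-type cells (log2 level, SD, n = 3 each). Both genes were picked for their likeness to Kcnq1ot1 on these arrays, and both passed the filter through wild-type cells alone. The filter thus set the direction of their lower null levels, which are a description with no test. Neither Meg3 nor Snrpn was called in either Map3k3 comparison. No group without Nat1 had all 3 arrays above background for these genes, so the missing calls do not show unchanged levels. For H19 the 3 most similar genes were Lsm11, Tnfrsf19 and Aqp11 (r = 0.984 to 0.987), again with the points falling into wild-type and other arrays.

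Cdkn1c, a cyclin-dependent kinase inhibitor read from the maternal copy, was lower in null than in wild-type cells and higher in Map3k3 cells with Dox than in both other transgenic groups. It gave 3539, 3324 and 3835 units in Map3k3 cells with Dox, 1545, 1422 and 1475 units without Dox, and 1442, 1304 and 1486 units in EGFP cells. The lowest Map3k3 array with Dox stood above the highest array of both other groups. Cdkn1c was 2.24-fold higher with Dox than without (log2 difference 1.16 ± 0.10, SE, adjusted p = 4.34e-06) and 2.22-fold higher than in EGFP cells (1.15 ± 0.10, adjusted p = 4.64e-06). Null cells gave 1814, 1615 and 1711 units, against 4947, 5124 and 4375 units in wild-type cells, a level 2.54-fold lower. Map3k3 cells with Dox remained 1.38-fold below wild-type cells, and their arrays did not overlap. The order was wild type, Map3k3 with Dox, null, then EGFP and Map3k3 without Dox at 1.45 ± 0.12 and 1.44 ± 0.15, which did not differ beyond their spread.

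Ascl2, a transcription factor needed for the spongiotrophoblast of the placenta, was also highest in wild-type cells, with Map3k3 cells with Dox next. It gave 1327, 933 and 1023 units in Map3k3 cells with Dox, 415, 491 and 382 units without Dox, and 353, 354 and 457 units in EGFP cells. It was 2.36-fold higher with Dox than without (1.24 ± 0.15, adjusted p = 4.48e-05) and 2.47-fold higher than in EGFP cells (1.302 ± 0.15, adjusted p = 2.84e-05), with no overlap between arrays. Null cells gave 414, 426 and 479 units, against 2478, 2920 and 2654 units in wild-type cells, so that Ascl2 was 5.53-fold lower in null cells. Map3k3 cells with Dox were 2.53-fold below wild-type cells. Null, Map3k3 cells without Dox and EGFP cells, at -0.24 ± 0.15, -0.35 ± 0.09 and -0.42 ± 0.21, were not separated beyond their spread.

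Slc22a18, a membrane transporter, ran the other way. It gave 2160, 2299 and 2186 units in Map3k3 cells with Dox, 3209, 3286 and 2775 units without Dox, and 2896, 3245 and 3445 units in EGFP cells. It was 1.64-fold lower in Map3k3 than in EGFP cells with Dox (log2 difference -0.71 ± 0.07, SE, adjusted p = 1.34e-05). Against the same line without Dox the log2 difference was -0.58 ± 0.07 (adjusted p = 6.69e-05) and the arrays did not overlap, but the fold was 1.496, just short of the 1.5 required for a call. Leaving out the third array of either group brought it past that limit. Null cells gave 3143, 2902 and 2830 units, against 882, 767 and 760 units in wild-type cells, a level 4.07-fold higher. Map3k3 cells with Dox were 2.71-fold above wild-type cells. The region around Kcnq1 therefore held members that were lower in null cells beside one that was higher.

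Phlda2, a placental growth-restraining protein with a membrane-binding domain, was not called in any tested comparison. It gave 2345, 2111 and 2482 units in Map3k3 cells with Dox, 2253, 1509 and 2295 units without Dox, and 1946, 1367 and 2464 units in EGFP cells. Null cells gave 3000, 1999 and 3147 units, against 3585, 4030 and 3327 units in wild-type cells. In the 4 groups without Nat1 the second array was the lowest, which widened the spread. The difference between Map3k3 cells with and without Dox was 0.11, with a 95% interval of -0.45 to 0.68 (adjusted p = 0.757), and against EGFP cells 0.12, with an interval of -0.45 to 0.68 (adjusted p = 0.751). A 1.5-fold rise lies inside that interval. The null minus wild-type difference was -0.31, with overlapping arrays. Map3k3 cells with Dox were 1.61-fold below wild-type cells, and their arrays did not overlap.

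Between Map3k3 cells with and without Dox, 3 of the 9 genes were called, all higher, while 17.9% of all genes tested were called, 12.3% higher and 5.59% lower. Between Map3k3 and EGFP cells with Dox, 4 of 9 were called, 3 higher and 1 lower, against 18.1% of all genes, 12.4% higher and 5.67% lower. These 2 comparisons share the Map3k3 arrays with Dox. The median log2 difference of the 9 genes was 0.58 and 0.54 in the 2 comparisons, and the median of all genes was -0.07 and -0.09. Both medians of the 9 are the values of Kcnq1ot1, which was near background in these groups, and with normexp the medians were 0.08 and 0.15. The null and wild-type arrays that chose the genes called 37.8% of all genes, and the comparison of Map3k3 cells with Dox and wild-type cells called 38.3%. Of the calls between null and wild-type cells 45.8% were higher, and 34.3% with the percentile taken over probes above background on all arrays.

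The transgene and Dox controls moved none of the 9 genes past the test. Between EGFP cells with Dox and null cells 0 of 9 were called by limma, 1 of 9 had an unadjusted p below 0.05, and 0.00692% of all genes were called. That share was 1 gene, Tfap2a, named after its value was seen. Between Map3k3 cells without Dox and null cells 0 of 9 were called, 3 of 9 had an unadjusted p below 0.05, and 0% of all genes were called. Over all genes, 1050 and 2108 had an unadjusted p below 0.05 in these 2 comparisons. With the replicate number as a block, the counts of called genes were 2 and 40. Cdkn1c differed from null cells by -0.27 in EGFP cells (adjusted p = 0.609) and by -0.28 in Map3k3 cells without Dox (adjusted p = 0.272) on the log2 scale, with no overlap between arrays in either case. Airn differed by 0.19 (adjusted p = 0.699) and 0.25 (adjusted p = 0.262) in the same comparisons, again with no overlap. Igf2 was not above background in any of these groups and has no fold.

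**Figure D2:**
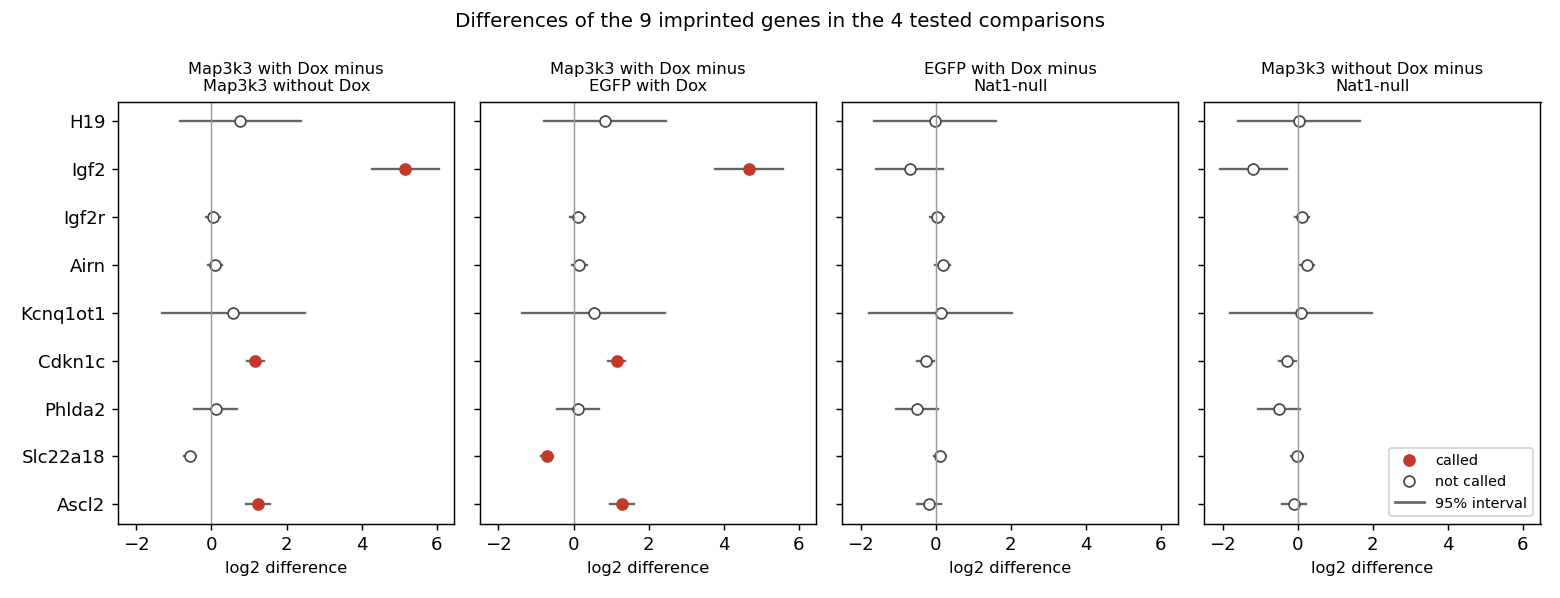
Log2 differences of the 9 imprinted genes in the 4 tested comparisons, with 95% intervals from limma. Red points were called: Igf2, Cdkn1c and Ascl2 higher in Map3k3 cells with Dox than in both other groups, and Slc22a18 lower than in EGFP cells. No point was called in the 2 control comparisons, and H19 and Kcnq1ot1 have the widest intervals.

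The arrays lay on 2 slides. Both Map3k3 groups and 2 EGFP arrays were on the first slide, and wild type, null and the third EGFP array on the second. Within the first slide, Map3k3 minus EGFP cells with Dox (3 and 2 arrays) differed by 4.53 for Igf2, 1.19 for Cdkn1c, 1.42 for Ascl2 and -0.66 for Slc22a18 on the log2 scale. Within the second row of the slides (2 and 2 arrays) the values were 4.496, 1.19, 1.27 and -0.65. All Map3k3 arrays shared the first slide. In its first row (1 and 3 arrays), Map3k3 cells with and without Dox differed by 5.24 for Igf2, 1.17 for Cdkn1c, 1.54 for Ascl2, -0.60 for Slc22a18 and 3.03 for H19. Directions for Igf2, Cdkn1c, Ascl2 and Slc22a18 were as over all arrays. Map3k3 cells without Dox and null cells shared no slide and no row, so that slide and group cannot be told apart in that comparison. Map3k3 cells with Dox and wild-type cells also shared no slide, and the same holds for their differences. Null and wild-type cells were on 1 slide but in different rows.

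Markers of other cell types also differed between the groups. Trophectoderm and trophoblast markers, 12 in all, summed to 361 to 429 times the array's 75th percentile in Map3k3 cells with Dox, 34.9 to 50.8 without Dox, 37.9 to 52.3 in EGFP cells, 38.8 to 55.9 in null cells and 203 to 219 in wild-type cells. In Map3k3 cells with Dox 11 or 12 of the 12 were above background. Cdx2, which defines trophectoderm, averaged 0.82 in Map3k3 cells with Dox and -3.18 in wild-type cells (log2 level), and was not above background on any array of the other 3 groups. The same ranking of Map3k3 cells with Dox above wild type was seen for Igf2, and the reverse for Cdkn1c and Ascl2.

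In the 12-marker sum Krt18, a keratin, weighed most, at 8.28 in Map3k3 cells with Dox and 7.30 in wild-type cells (log2 level). Of the 11 markers tested, 9 were called higher in Map3k3 cells with Dox than in those without, and 9 higher than in EGFP cells. Of all genes, 12.3% and 12.4% were called higher. Tfap2c and Gcm1 were not called in either comparison.

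Primitive endoderm markers, 10 in all, summed to 9.84 to 15.0 in Map3k3 cells with Dox, 2.81 to 4.01 without Dox, 2.60 to 4.66 in EGFP cells, 3.62 to 6.84 in null cells and 21.8 to 24.9 in wild-type cells. Most of that sum was Lamb1, a laminin chain, at 3.36 in Map3k3 cells with Dox and 4.53 in wild-type cells (log2 level). Of the 8 tested, 7 were called higher and 1 lower in both Map3k3 comparisons, where 17.9% and 18.1% of all genes were called. Against wild-type cells 6 were called higher and 2 lower in Map3k3 cells with Dox, with a median log2 difference of 1.43. In that comparison 38.3% of all genes were called. Afp and Sox17 passed the filter through Map3k3 cells with Dox alone, and Dab2 through wild-type cells alone, so the filter set their directions. Sox7 was -2.59 in Map3k3 cells with Dox, below the -1.71 without Dox and -1.02 in null cells, and -4.14 in wild-type cells (log2 level). Gata6, a transcription factor that defines this lineage, was -1.56 in Map3k3 cells with Dox and -3.79 in wild-type cells (log2 level). Fibroblast and feeder markers, also 10, summed to 11.1 to 14.4 in Map3k3 cells with Dox, 5.08 to 6.503 without Dox, 5.28 to 5.90 in EGFP cells, 6.25 to 6.56 in null cells and 94.7 to 101 in wild-type cells, where 8 of the 10 were above background. Most of that wild-type sum was Tagln, at 6.05 there and 3.48 in Map3k3 cells with Dox (log2 level). Of the 8 tested, 6 were called lower in null than in wild-type cells, where 37.8% of all genes were called either way. Dcn, Col1a2, Col3a1 and Acta2 passed the filter through wild-type cells alone. Col3a1 was nonetheless -2.38 in null and -2.76 in wild-type cells, and Twist1 -3.08 in Map3k3 cells with Dox and -3.82 in wild-type cells. Dcn, a fibroblast collagen-binding protein, was above background in wild-type cells alone. Stem cell markers summed to 973 to 1027 in Map3k3 cells with Dox, 1269 to 1329 without Dox, 1290 to 1309 in EGFP cells, 1317 to 1383 in null cells and 753 to 816 in wild-type cells. Of these 10, 4 were called lower with Dox than without, 3 lower than in EGFP cells, and 0 higher in either comparison. Of all genes, 5.59% and 5.67% were called lower. Between null and wild-type cells 7 were called higher and 0 lower, where 37.8% of all genes were called either way. H19, Igf2, Cdkn1c and Ascl2 are all genes that trophoblast or fibroblasts can express, and the part of these markers in the results was not tested. In bulk samples, a smaller share of expressing cells and less RNA per cell cannot be told apart.

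**Figure D3:**
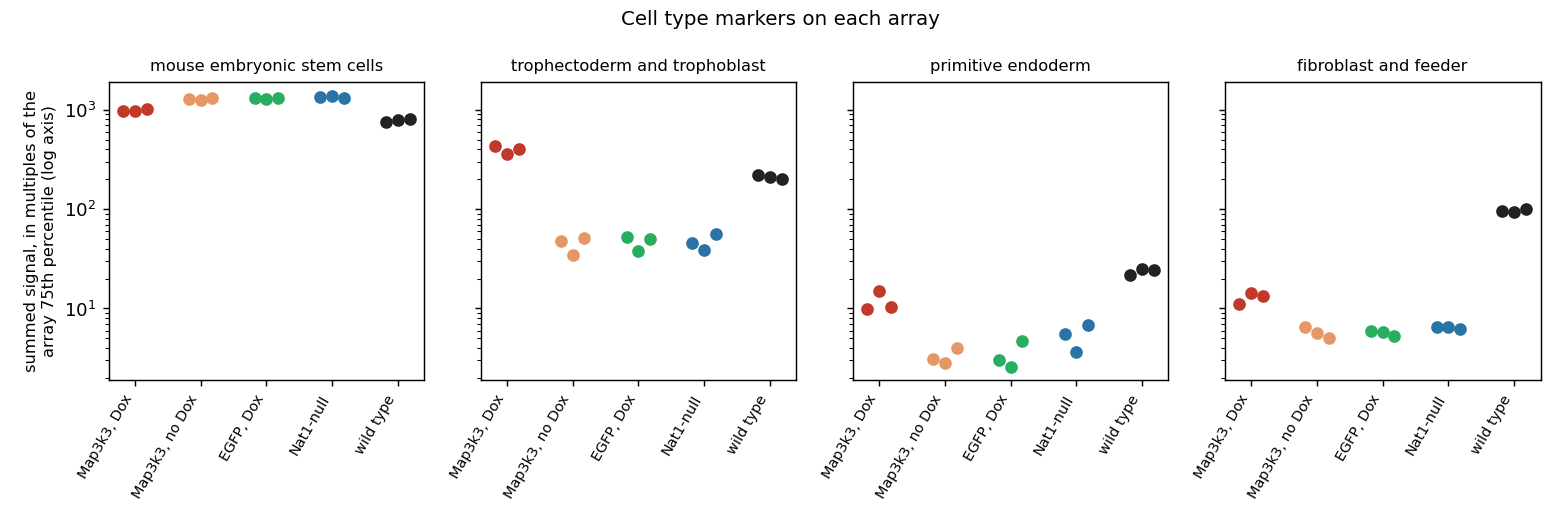
Summed signal of 4 lists of cell type markers on each array, in multiples of the array's 75th percentile on a log axis. Trophectoderm and trophoblast markers stood highest in Map3k3 cells with Dox (361 to 429), and fibroblast and feeder markers in wild-type cells (94.7 to 101).

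Among the other genes of the IGF axis, 17 of 21 listed were tested. Between Map3k3 cells with and without Dox 6 rose and 2 fell, and between Map3k3 and EGFP cells with Dox 5 rose and 0 fell, with medians of 0.29 and 0.34. Between null and wild-type cells 3 rose and 9 fell, with a median of -0.81, where all genes had 0.07. Irs1, Igfbp5 and Pappa passed the filter through wild-type cells alone, so the filter set the direction of their falls. Of all genes tested, 17.9%, 18.1% and 37.8% were called either way in these 3 comparisons. The binding proteins carried the largest values. Igfbp6, which binds Igf2 with preference, averaged 2.23 ± 0.19 in Map3k3 cells with Dox, -2.38 ± 0.41 in those without it and -2.31 ± 0.33 in EGFP cells (log2 level, SD, n = 3 each), a 24.4-fold and a 23.2-fold rise (adjusted p = 6.1e-08 and 7.2e-08). It was -2.20 ± 0.46 in null cells and 0.96 ± 0.10 in wild-type cells. Igfbp4 was not above background in Map3k3 cells without Dox or in EGFP cells, and was at least 5.49-fold and at least 4.48-fold higher in Map3k3 cells with Dox.

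Igfbp3, the main carrier of IGFs in blood, averaged -3.88 ± 0.60 in null cells and 1.60 ± 0.03 in wild-type cells (log2 level, SD, n = 3 each), a 44.7-fold fall. It rose at least 5.05-fold in Map3k3 cells with Dox over EGFP cells, and remained 13.3-fold below wild type. Igfbp2 fell 2.46-fold in Map3k3 cells with Dox against those without (adjusted p = 0.019) but not against EGFP cells (-0.73, adjusted p = 0.15), and its call was lost without the first array of cells without Dox (adjusted p = 0.0623). Without the first Map3k3 array with Dox, Igfbp2 became a call against EGFP cells (-1.15, adjusted p = 0.026). Pappa, a protease of the binding proteins, was called lower with Dox (-0.93, adjusted p = 0.046) with 1 of the 6 arrays above background, and lost the call when any of several single arrays was left out (adjusted p = 0.170 without the first array of cells without Dox). Igfbp5 was called higher by 0.65 with no array of either group above background, and turned to -0.10 with normexp. Neither call has a fold.

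The receptors were not called in either Map3k3 comparison. Igf1r, the receptor that carries the Igf2 growth signal, differed by 0.29 (adjusted p = 0.037) and 0.39 (adjusted p = 0.0073) on the log2 scale in the 2 Map3k3 comparisons, below the 1.5-fold required. Insr, the insulin receptor, differed by 0.19 and 0.32 and was not called, and Igf1 differed by 0.07 and -0.08. Irs1, an adaptor of both receptors, was not above background on any null array and was at least 10.1-fold lower there than in wild-type cells. It was called higher in Map3k3 cells with Dox than without (log2 difference 2.66), with 1 of 3 arrays with Dox above background. No fold is given, because the other arrays with Dox were not above background. The call against EGFP cells was lost with normexp (0.49 on the log2 scale). Irs2, the related adaptor, named after its values were seen, averaged 2.23 ± 0.08 in Map3k3 cells with Dox, 1.28 ± 0.02 in those without it and 1.13 ± 0.11 in EGFP cells, and 0.86 ± 0.14 in null cells against 2.68 ± 0.17 in wild-type cells (log2 level, SD, n = 3 each). It was called higher in both Map3k3 comparisons and lower in null than in wild-type cells.

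Near H19, Igf2 and Kcnq1 on chromosome 7, 15 of 18 listed neighbours were tested. With Dox against without Dox 5 rose and 0 fell in the Map3k3 line, and against EGFP cells 5 rose and 1 fell, with medians of -0.05 and -0.03. In null against wild-type cells 4 rose and 7 fell. Tnnt3 passed the filter through wild-type cells alone, so the filter set the direction of its lower null level. Of all genes, 17.9%, 18.1% and 37.8% were called either way in these 3 comparisons. Osbpl5, an oxysterol-binding protein gene that is imprinted in placenta and lies beyond Phlda2, averaged 2.20 ± 0.30 in Map3k3 cells with Dox, -0.70 ± 0.24 in those without it and -0.59 ± 0.23 in EGFP cells (log2 level, SD, n = 3 each). The rise was 7.46-fold and 6.93-fold (adjusted p = 1.1e-07 and 1.4e-07), and the level was above that of wild-type cells, 1.08 ± 0.04. Tspan32 fell 1.66-fold against EGFP cells (adjusted p = 3.0e-04) and was 4.29-fold higher in null than in wild-type cells, as was Slc22a18 in direction.

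Kcnq1, the potassium channel gene in which Kcnq1ot1 starts, was -2.43 ± 0.14 in null cells and -4.91 ± 0.55 in wild-type cells (log2 level, SD, n = 3 each), a 5.59-fold rise. Only 1 of the 3 wild-type arrays was above background. With normexp the log2 difference was 1.09 in place of 2.48. Its direction was thus opposite to that of Kcnq1ot1. In Map3k3 cells with Dox it was -2.83 ± 0.83 and was not called against cells without Dox (-0.64, adjusted p = 0.17) or EGFP cells (-0.40, adjusted p = 0.40). Leaving out the third Map3k3 array with Dox made the first of these a call (-0.997, adjusted p = 0.0434). Lsp1, a neighbour of H19 known from leukocytes, was 17.7-fold lower in null than in wild-type cells and rose 2.57-fold with Dox in the Map3k3 line.

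Near Igf2r and Airn on chromosome 17, 8 of 13 listed neighbours were tested, and 1 rose with Dox in the Map3k3 line while 0 fell. Against EGFP cells 1 rose and 1 fell, and in null against wild-type cells 3 rose and 1 fell, with medians of -0.23, -0.35 and 0.48. The shares of all genes called either way were 17.9%, 18.1% and 37.8%. Sod2, a mitochondrial superoxide dismutase, fell 1.56-fold against EGFP cells (adjusted p = 2.6e-05), and lost that call with either of the 2 other between-array scalings.

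**Figure D4:**
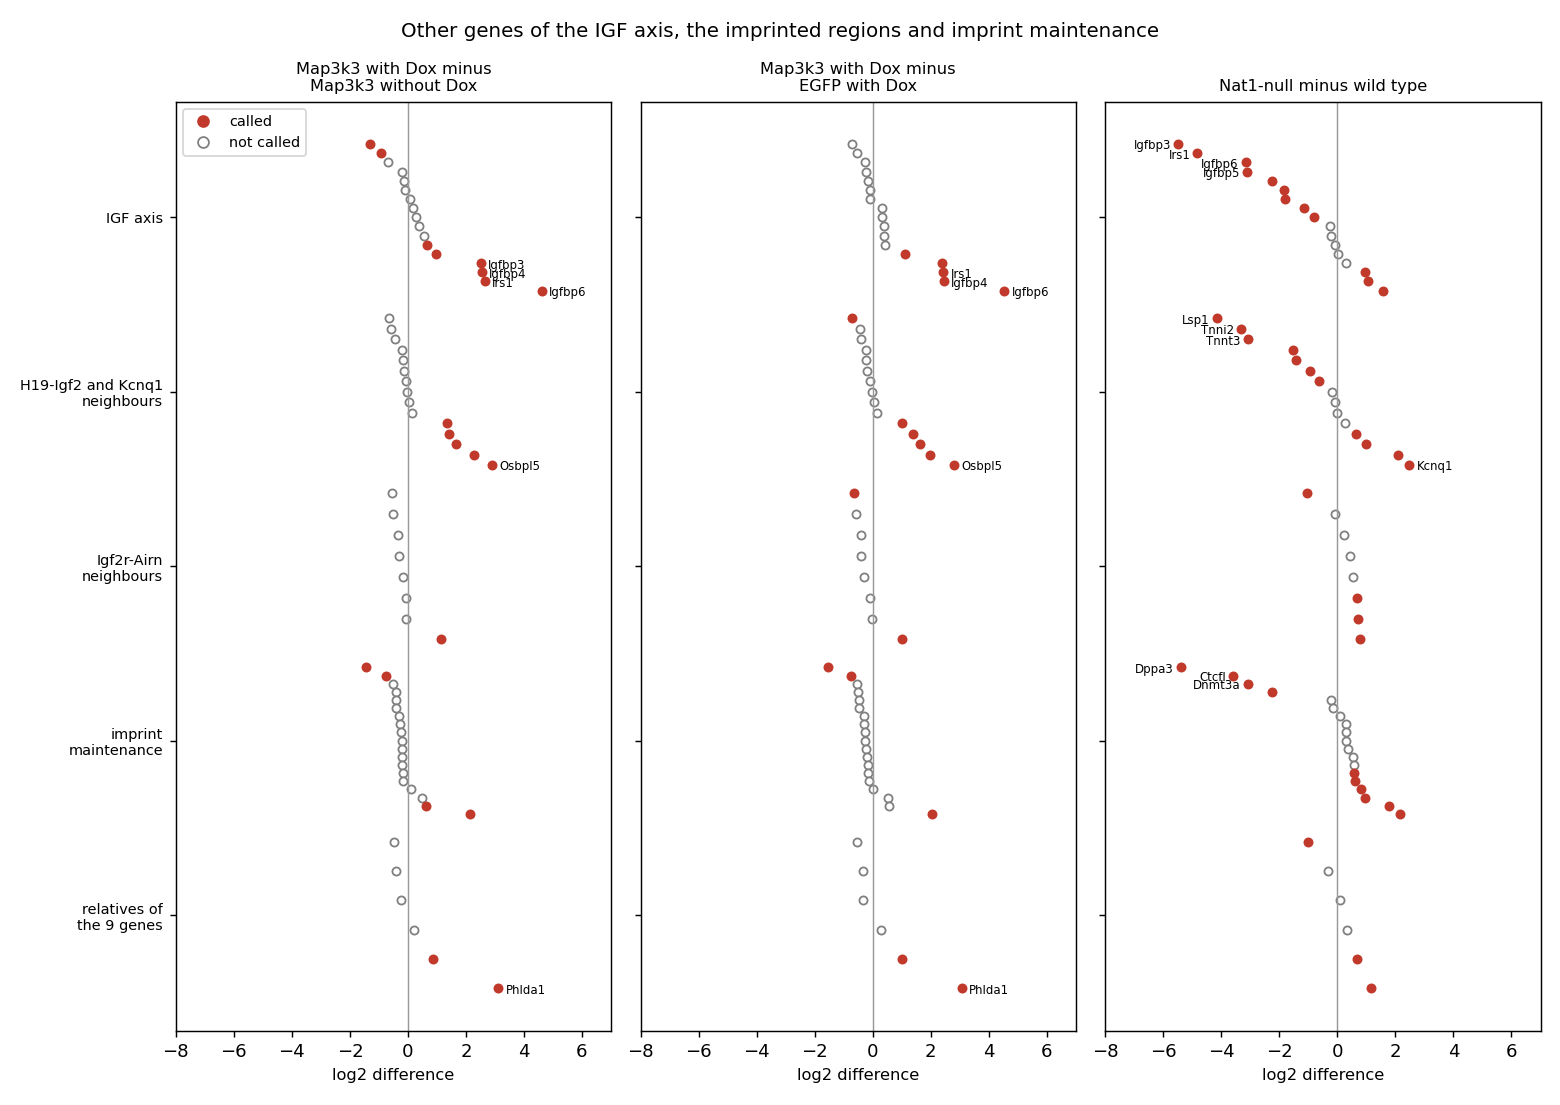
Log2 differences of the tested genes in 5 lists (IGF axis, neighbours of H19, Igf2 and Kcnq1, neighbours of Igf2r and Airn, imprint maintenance, relatives of the 9 genes) in 3 comparisons, with called genes in red and names at differences of at least 2.4. Igfbp6, Phlda1 and Osbpl5 lie farthest right in both Map3k3 comparisons, and Igfbp3 and Dppa3 farthest left in null minus wild-type cells.

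Of 19 genes that set or protect imprints, all were tested. With Dox against without Dox in the Map3k3 line 2 rose and 2 fell, against EGFP cells 1 rose and 2 fell, and in null against wild-type cells 6 rose and 4 fell, with medians of -0.20, -0.25 and 0.30. The shares of all genes called either way were 17.9%, 18.1% and 37.8%, so the counts in the Map3k3 comparisons lay near the general share. Ctcfl passed the filter through wild-type cells alone, so the filter set the direction of its fall in null cells. Dppa3, which shields the maternal genome from demethylation in the zygote, averaged -2.05 ± 0.69 in null cells and 3.36 ± 0.09 in wild-type cells (log2 level, SD, n = 3 each), a 42.3-fold fall. It was -2.88 ± 0.46 in Map3k3 cells with Dox, not called against cells without Dox. Zfp57, which keeps methylation on imprinted regions, was 3.42-fold higher in null than in wild-type cells, and Tet2, an enzyme that oxidises methylated cytosine, 4.47-fold higher.

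Trim28, the partner of Zfp57, Ctcf, which binds the H19 imprinting region, and Dnmt1, the maintenance methyltransferase, differed by 0.53, 0.28 and 0.30 on the log2 scale between null and wild-type cells, below 1.5-fold. In Map3k3 cells with Dox they differed from cells without Dox by -0.51, -0.24 and -0.30. Dnmt3l, the cofactor that helps set germline imprints, fell 2.72-fold with Dox in the Map3k3 line (adjusted p = 4.2e-04) and 2.94-fold against EGFP cells (adjusted p = 2.2e-04). Dnmt3a, a methyltransferase that sets methylation de novo, moved the other way and is named after its values were seen. It averaged -0.26 ± 0.18 in Map3k3 cells with Dox, -2.41 ± 0.14 in those without it and -2.29 ± 0.36 in EGFP cells, and -2.58 ± 0.13 in null cells against 0.52 ± 0.10 in wild-type cells (log2 level, SD, n = 3 each). It rose 4.44-fold and 4.09-fold in the Map3k3 comparisons and was 8.53-fold lower in null than in wild-type cells. Tet1 fell 1.67-fold and 1.68-fold in the same comparisons (adjusted p = 1.8e-05 and 1.6e-05). Ctcfl, the germline relative of Ctcf, was at least 4.03-fold lower in null than in wild-type cells.

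Relatives of the 9 genes did not all move like them. Of 8 listed, 6 were tested, and 2 rose and 0 fell in both Map3k3 comparisons. Phlda1, of the same family as Phlda2, averaged 5.55 ± 0.30 in Map3k3 cells with Dox, 2.43 ± 0.14 in those without it and 2.47 ± 0.16 in EGFP cells (log2 level, SD, n = 3 each), an 8.67-fold and an 8.46-fold rise (adjusted p = 3.8e-08 and 4.3e-08). In null against wild-type cells 2 of the relatives rose and 1 fell, with a median of 0.21. Of all genes, 17.9% and 18.1% were called either way in the Map3k3 comparisons and 37.8% between null and wild-type cells.

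For the remaining members, the genes of the most similar pattern over the 15 arrays were Mboat1, Sfmbt2 and Cct6b for Cdkn1c (r = 0.985 to 0.993), Plbd1, Hba-a2 and Chmp2a for Ascl2 (r = 0.985 to 0.992), and Septin1, Smarcd3 and Alg6 for Slc22a18 (r = 0.992 to 0.993). Sfmbt2 is itself an imprinted gene of the trophoblast. Phlda2 was closest to Borcs8, Ccm2l and Phf19 (r = 0.950 to 0.959). Igf2r and Airn, which varied least, had the lowest values. For Igf2r they were Dand5, Zfp523 and Rnf214 (r = 0.828 to 0.835), and for Airn Banf2, Tgfbrap1 and Igf2bp2 (r = 0.834 to 0.873). These arrays fall into separate groups, so the coefficients describe shared group levels.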

How the data were processed

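One-colour Agilent arrays of 15 samples were read by the authors with Feature Extraction 11.5.1.1 (protocol GE1_1105_Oct12), per the file headers, giving a background-corrected signal intensity per spot. The deposited log2 values of the same arrays, normalized by the authors, correlated at 1 with the values used here. Of 62976 spots, 59305 were not controls and no spot was flagged as saturated. Spots of 1 probe were averaged on the log2 scale and each array's 75th percentile over 55681 probes was subtracted. Between 42.7% and 53.9% of probes were well above background per array, and the number of arrays limits the precision. Probes well above background on all 3 arrays of a group were kept (29782), with the brightest probe per gene. One model with 5 group means (10 residual degrees of freedom) was fitted with limma 3.58.1 in R 4.3.3 and was tested on simulated data.

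Symbols and chromosomes came from RefSeq by accession. Genes of the lists are named if called with one of the 4 largest changes each way in a comparison, and Igf1r, Insr, Igf1, Kcnq1, Zfp57, Trim28, Ctcf, Dnmt1 and Dppa3 whatever their change. For each of the 9 genes the 3 most correlated named genes are given, and Eif4g2 and Map3k3 serve as checks. The members and lists were chosen with earlier results of these data known. Folds and counts of list genes between null and wild-type cells are therefore descriptions. Normexp was run on median spot and background signals.

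The main fit was unpaired, and replicate numbers entered only the alternative with the replicate block. Same-numbered arrays deviated together in the 4 tested comparisons. The correlations of their deviations were 0.168 to 0.338 (Map3k3 with and without Dox) and 0.107 to 0.336 (Map3k3 and EGFP). They were 0.256 to 0.576 for EGFP and null, and 0.287 to 0.631 for Map3k3 without Dox and null. For null and wild-type arrays the correlations were -0.028 to 0.007, and for Map3k3 arrays with Dox and wild-type arrays 0.008 to 0.064.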

Additional observations from a re-analysis of the deposited data

How the results depend on the processing

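The tested values of the 9 genes were recomputed under other scalings, background correction, filters, probe choices, blocks and with each array left out, 600 values in all. Of these 596 kept their side of the threshold, 0 were lost or reversed, and 4 became calls: H19 with the slide row as a block and Slc22a18 in 3 settings, all in Map3k3 cells with against without Dox. Of 300 values described without a test 269 moved by less than 1 SD. With normexp, which raises dim signals, the null minus wild-type differences were -8.24 for H19 and -0.50 for Igf2 on the log2 scale. Among other named genes 30 of 2496 values were lost, 27 became calls and Igfbp5 reversed (-0.10 with normexp).

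Counts over all genes moved most with the fold minimum and the probe choice. With no fold minimum they were 5752 (Map3k3 with against without Dox), 5987 (Map3k3 against EGFP), 9109 (null against wild type) and 8913 (Map3k3 with Dox against wild type), and with every probe as its own feature 4685, 4697, 9950 and 9950. Probes above background on all 15 arrays gave 1718 for the first. The slide as a block gave 4424 for Map3k3 with Dox against wild type, and the main fit 5530. EGFP against null gave 1 call, and 2 with normexp, 2 with all probes, 2 with the replicate block and 19 with the slide as a block, an alternative chosen after seeing the data. Map3k3 without Dox against null gave 0, and 2 with normexp, 10 with probes above background on all arrays, 2 with the slide row, 40 with the replicate block and 12 with the slide block. Leaving out each array gave 0 to 8 and 0 to 2 calls in these 2 comparisons, with the most in the first without the second null array and the most in the second without the first null array. The cause of these changes was not tested. The replicate block gave 5602 calls for null against wild type and 5693 for Map3k3 with Dox against wild type, whose arrays share only a number, and changed no call of the 9 genes. The smallest signals, those of H19, Igf2 and Kcnq1ot1 outside the groups named, were limited by background.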
